A study of Homo sapiens with 4 samples.

Results

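The regions described here are stretches of open chromatin called in all 4 cancer cell lines of an ATAC-seq series. The deposited peaks of the 4 lines on chromosomes 1 to 22 were merged wherever they overlapped by 1 bp or more, and a region was kept if it held at least 1 peak of each line. Of 162761 merged regions, 19305 met this rule (11.9%, exact Clopper-Pearson 95% interval 11.70% to 12.02%). These regions, called members below, were chosen by the authors' peak calls in the 4 lines, so their number and strength are descriptions and no test was applied to them. A further 13410 regions were called in 3 lines, 32575 in 2 lines and 97471 in 1 line.

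The series asks how PVRL4 is controlled by proteins of the FOS family. The labels give SKBR3 and T47D as breast cancer, HCT116 and RKO as colorectal cancer, and all as WT genotype. McCoy's 5A was the medium of SKBR3 and of HCT116, while RKO grew in DMEM and T47D in RPMI. There was 1 library per line, so tissue, medium, depth and line cannot be told apart.

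In ATAC-seq a transposase inserts sequencing adapters into DNA that is not covered by nucleosomes or tightly packed chromatin, so that tags pile up over accessible stretches. Promoters of widely used genes and sites bound by the insulator protein CTCF are known to be open in most cell types, whereas many enhancers are open in few. The labelled tissues were not checked against marker genes, and members were not assigned to genes, because no gene annotation of the hg19 build was used here.

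Depth without duplicates was 5450100 tags for T47D, 4313512 for SKBR3, 3262240 for RKO and 1057628 for HCT116. The lists held 75390 peaks on chromosomes 1 to 22 for T47D, 108561 for SKBR3, 64571 for RKO and 38941 for HCT116. HCT116 was thus both the shallowest library and the shortest list.

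Members took up different shares of the 4 lists. They held 53.7% of the HCT116 peaks, 32.7% of the RKO peaks, 26.7% of the T47D peaks and 18.97% of the SKBR3 peaks. Weighted by signal (pileup, the number of extended tags stacked at a summit, multiplied by peak length), the shares were 76.3% in HCT116, 73.1% in RKO, 61.8% in T47D and 44.8% in SKBR3. Of the 10% of each list with the highest pileup, 90.9% of the HCT116 peaks, 87.5% of the RKO peaks, 77.6% of the T47D peaks and 54.6% of the SKBR3 peaks lay in members. The shares were lowest throughout in SKBR3, which had the longest list, and highest in HCT116, which had the shortest.

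The pileup of members was not scaled between lines, and it was highest in the deepest library and lowest in the shallowest. The median was 29 tags for T47D, 18 for RKO, 17 for SKBR3 and 8 for HCT116. Leaving out the lowest 10% and the highest 10% of members, values ran from 9 to 64 tags for T47D, from 6 to 42 for SKBR3, from 5 to 40 for RKO and from 4 to 20 for HCT116. The weakest of the 4 calls, by −log10 q, was that of HCT116 in 67.4% of members, of SKBR3 in 15.0%, of RKO in 14.7% and of T47D in 2.82%. A −log10 q of at least 10 in every line was reached by 6575 members, which is 34.1% of members and 4.04% of all merged regions.

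At the edge of the rule, the weakest call of a member could be very weak. A member at chr8:21641957-21642231 held pileups of 3 tags for T47D, 2 for SKBR3, 3 for RKO and 2 for HCT116, and its SKBR3 call had a −log10 q of 1.01. The median weakest −log10 q was 6.94 in members and 3.98 among the calls of regions called in 3 lines. Of the regions called in 3 lines, 46.8% lacked HCT116, 27.1% RKO, 15.2% T47D and 10.9% SKBR3. The line most often missing was also the shallowest library, and the part of depth in membership was not tested.

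Members were wide. Their median width was 469 bp (quartiles 317 and 678 bp), against 300 bp for regions called in 3 lines, 257 bp for 2 lines and 141 bp for 1 line. The narrowest member spanned 117 bp and the widest 1998 bp. A width above 1000 bp was seen in 953 members (4.94%) and in 0.147% of all other regions. Part of this order follows from the rule, since merging peaks of more lines can only widen a region. The single peaks inside members were also wider than the other peaks of the same list, with medians of 322 against 179 bp in SKBR3, 367 against 181 bp in T47D, 203 against 136 bp in HCT116 and 286 against 138 bp in RKO.

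**Figure D1:**
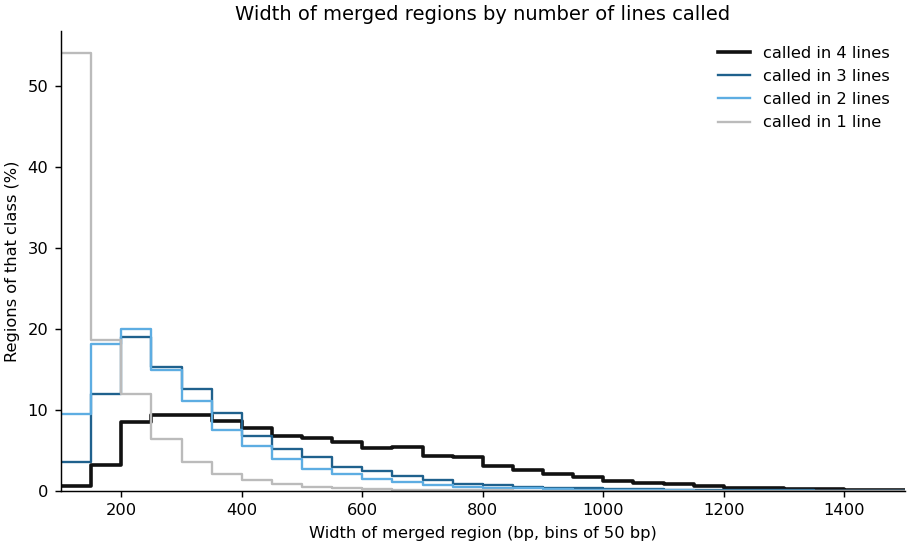
Width of merged regions in bins of 50 bp (x axis, bp, shown up to 1500 bp) against the percentage of regions of the same class (y axis), for regions called in 4, 3, 2 and 1 lines. The curve for 4 lines peaks farthest to the right and has the longest tail, with a median of 469 bp against 141 bp for regions called in 1 line.

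The bases that all 4 lines had in common were a smaller core. In 18947 members some bases lay under a peak of every line, and this stretch had a median length of 173 bp (quartiles 114 and 281 bp) and a maximum of 1744 bp. The other 358 members (1.85%) held no such base and were joined only through chains of overlapping peaks. Members summed to 10.04 Mb, which is 24.2% of the 41.5 Mb under all merged regions, and their common stretches summed to 4.07 Mb.

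Most members held 1 called peak per line. A peak counts once whatever its length, so maxima within a peak were not counted. Exactly 1 peak in every line was found in 15705 members (81.4%). More than 1 peak in at least 1 line was found in 3600 members (18.6%), and more than 1 in every line in 37 (0.192%, exact Clopper-Pearson 95% interval 0.135% to 0.264%). Several peaks were seen in 8.80% of members in RKO, 7.81% in HCT116, 6.42% in SKBR3 and 4.09% in T47D. The 37 members split in every line had a median width of 1156 bp, against 410 bp for those with 1 peak in every line.

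The members with the most peaks differed in which line was split. The member at chr8:145158484-145160039 held 11 peaks, with 2 for T47D, 3 for SKBR3, 3 for RKO and 3 for HCT116, and pileups of 90 tags for T47D, 55 for SKBR3, 68 for RKO and 31 for HCT116. It was split in all 4 lines. The member at chr3:197024447-197026314 also held 11 peaks, with 1 for T47D, 3 for SKBR3, 4 for RKO and 3 for HCT116. Here the T47D library, with a pileup of 84 tags against 24 in SKBR3, 11 in HCT116 and 21 in RKO, gave 1 unbroken peak. The widest member, chr19:54693208-54695205, held 7 peaks over 1998 bp, and its pileups of 71 tags for T47D, 49 for SKBR3, 55 for RKO and 32 for HCT116 lay at or above percentile 98.2 of every list.

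Summits of the 4 lines lay close together. Among the 15705 members with 1 peak per line, the distance between the outermost of the 4 summits had a median of 60 bp (quartiles 36 and 92 bp). It was at most 100 bp in 79.0% of them and above 200 bp in 6.44%. Between single pairs of lines the median distance ran from 24 bp (SKBR3 and T47D) to 30 bp (SKBR3 and HCT116). These median distances are shorter than the fragment length of 105 to 117 bp by which the authors' peak caller extended each tag. The distance hardly differed with strength, with a median of 62 bp in the 20% of members with the highest mean rank of pileup and 63 bp in the lowest 20%.

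Members were unevenly spaced. The median distance between the midpoints of neighbouring members was 46.1 kb (quartiles 17.3 and 116 kb), and the mean was 145 kb. Of 19283 distances, 452 (2.34%) were at most 1 kb, 1214 (6.30%) at most 5 kb and 2893 (15.0%) at most 10 kb. Linking members at most 5 kb apart gave 1117 runs of 2 or more, which held 12.1% of members, and 13 runs of 4 or more. The longest runs held 6 members each, at chr11:10529391-10531850, chr5:134259472-134264121 and chr1:564486-570279. The chr1 and chr11 runs hold members, described below, with a local background far above the genome-wide level. The part of background in these runs was not tested. Another called region of any class lay within 1 kb of 34.2% of members, against 32.2%, 31.0% and 28.1% of regions called in 3, 2 and 1 lines.

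The distances between members had a step at 5 kb, a feature noticed only after the values were seen. There were 71 distances from 4.0 to 4.5 kb and 76 from 4.5 to 5.0 kb, but 172 from 5.0 to 5.5 kb and 180 from 5.5 to 6.0 kb. The distances between neighbouring summits of each single list stepped at the same place. From 4.5 to 5.0 kb and from 5.0 to 5.5 kb they numbered 1756 and 2611 in SKBR3, 1078 and 1403 in T47D, 291 and 513 in HCT116, and 591 and 896 in RKO. In these bins the counts were 58 and 58 for regions called in 3 lines, 242 and 331 for 2 lines, 1584 and 1835 for 1 line, and 3585 and 4421 for all merged regions.

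Per the file headers, the regional background of a peak was taken over a window of 10000 bp, which reaches 5 kb to each side. The local background that results can be recovered from the deposited pileup and fold, and is given here as a multiple of the genome-wide level of the same library. It had a median multiple of 11.7 for T47D, 8.70 for SKBR3, 12.9 for RKO and 12.1 for HCT116 in the 266 members whose nearest fellow member lay 4 to 5 kb away. In the 643 members whose nearest lay 5 to 6 kb away, it was 6.19 for T47D, 5.06 for SKBR3, 7.85 for RKO and 6.60 for HCT116. The background was thus higher in every line inside the window. This direction is partly set by the measure, since a neighbour inside the window adds its own tags to the background. The part of background in the step was not tested.

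**Figure D2:**
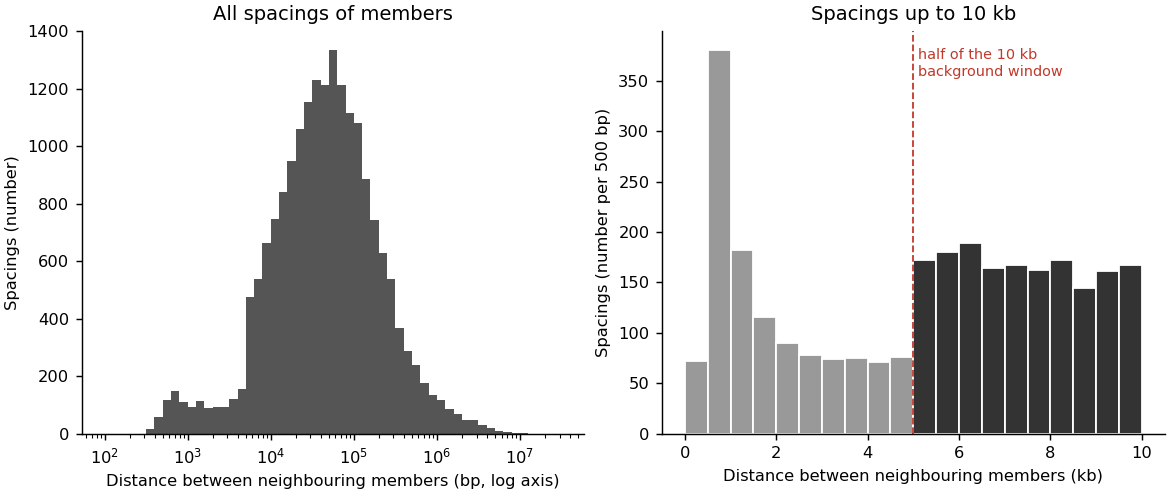
Distances between midpoints of neighbouring members, over all distances (left, log axis in bp) and up to 10 kb in bins of 500 bp (right, kb), each bar giving the number of distances. The bars right of the dashed line at 5 kb stand at 172 and 180, against 71 and 76 in the 2 bins left of it.

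At the scale of 1 Mb, members were unevenly spread. Of 2732 bins with a merged region, 487 (17.8%) held no member, and the median was 5. The 273 bins densest in members held 37.1% of members and 19.4% of the other regions, while the 273 bins densest in other regions held 21.9% of those. Members were sparser than the other regions (6.91 against 51.3 per Mb), and the part of this in these shares was not tested. The fullest bin lay on chromosome 19 from 49 to 50 Mb, where 55 of 171 merged regions were members. It was followed by 51 of 193 on chromosome 11 from 65 to 66 Mb and 50 of 147 on chromosome 16 from 30 to 31 Mb.

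Chromosome 19 carried the highest density, with 22.3 members per Mb of the span between its first and last region (exact Poisson 95% interval 21.1 to 23.5). Chromosomes 22 and 17 followed with 15.4 and 15.3 per Mb, and their intervals of 14.1 to 16.7 and 14.5 to 16.2 overlapped. The lowest densities were 3.36 on chromosome 4, 3.58 on chromosome 18 and 3.78 on chromosome 13, against 6.91 over all chromosomes. Members made up 21.5% of the merged regions on chromosome 19 and 8.22% on chromosome 8. The highest density exceeded the lowest 6.64 times for members, 4.63 times for regions called in 3 lines, 3.11 times for 2 lines and 2.19 times for 1 line. Intervals cover counting error only.

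**Figure D3:**
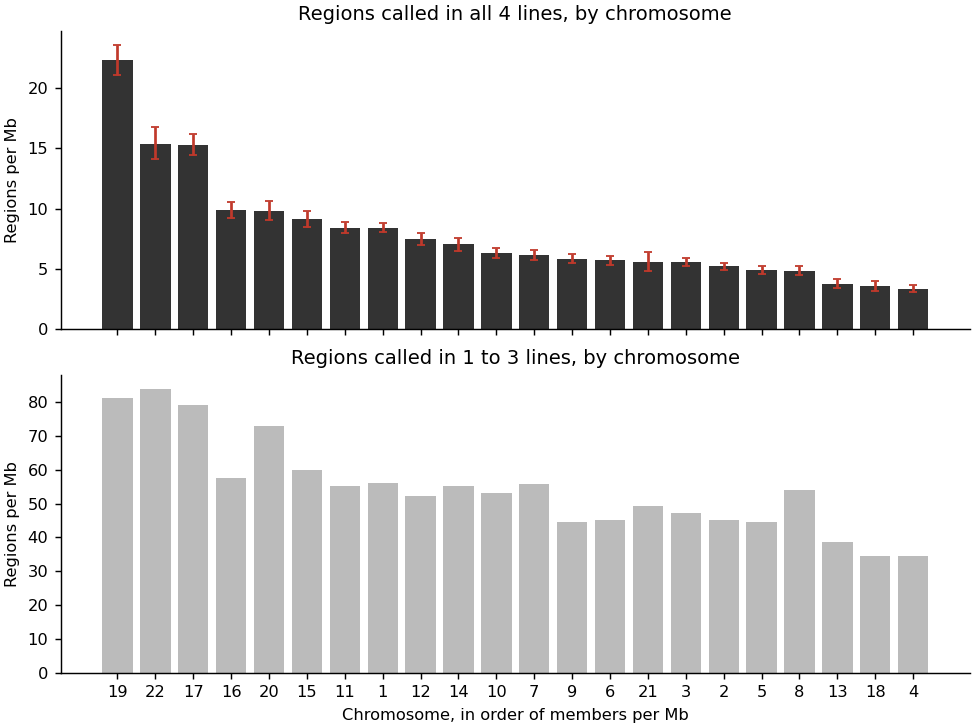
Regions per Mb on each chromosome, ordered by the density of members, for regions called in all 4 lines (top, bars with exact Poisson 95% intervals) and in 1 to 3 lines (bottom, no intervals). Members run from 22.3 per Mb on chromosome 19 to 3.36 on chromosome 4, and the other regions vary less.

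The 4 lines ranked the members alike but not identically. Spearman's rho of pileup across the 19305 members was 0.757 for SKBR3 and T47D, 0.753 for T47D and RKO, 0.730 for HCT116 and RKO, 0.707 for T47D and HCT116, 0.675 for SKBR3 and RKO, and 0.670 for SKBR3 and HCT116. The 2 pairs from 1 tissue stood at ranks 1 and 3 of the 6 coefficients. They stood at ranks 1 and 2 for fold (0.676 for SKBR3 and T47D, 0.612 for HCT116 and RKO) and given the merged width, and at ranks 2 and 3 for pileup times length, where T47D and RKO came first at 0.793. The same regions are compared in each pair, with the same sequence and merged width, so the coefficients are descriptions. Given the merged width, the partial coefficients ran from 0.505 for SKBR3 and RKO to 0.632 for SKBR3 and T47D.

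Ranks were spread least among the strongest members. The 10% of members with the highest pileup were shared most between HCT116 and RKO (1145 members, 62.4% of those of HCT116 and 60.8% of those of RKO) and least between SKBR3 and RKO (945 members, 48.8% and 50.2%). In every line at once, 591 members stood in the top 10%. The range of a member's 4 percentile ranks had a median of 26.2 points. It was 14.5 points in the 20% of members with the highest mean rank, 36.6 in the middle 20% and 21.7 in the lowest 20%. Ranks near either end have less room to vary.

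Strength went with width and place. Over 5 equal groups from the lowest to the highest mean rank, the median width was 281, 368, 478, 594 and 693 bp, and the stretch under all 4 lines was 103, 124, 166, 238 and 351 bp. Chromosome 19 held 4.22% of the members of the lowest group and 9.19% of those of the highest. Pileup and width come from the same tags and are not independent.

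**Figure D4:**
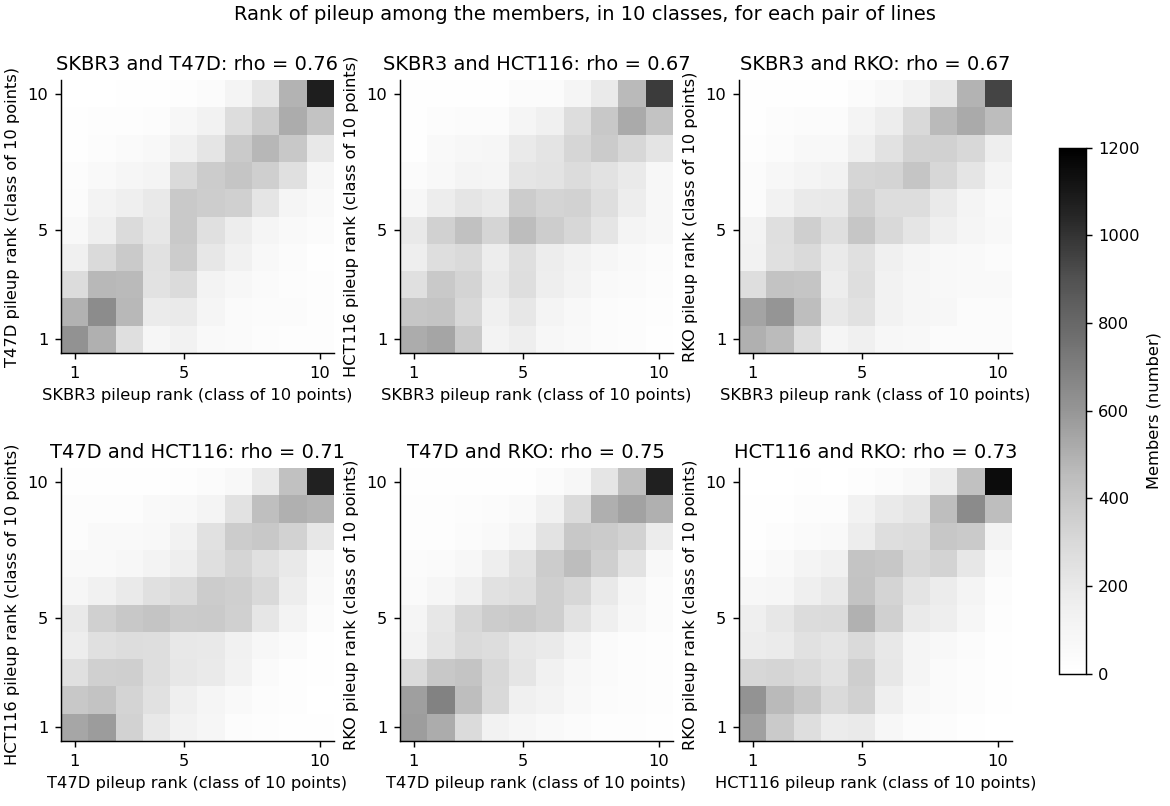
Number of members (grey scale) in each combination of pileup ranks, cut into 10 classes of 10 percentile points, for each pair of lines, with class 10 the highest and Spearman's rho above each panel. The darkest cell of every panel is the one where both lines are in class 10, with 945 to 1145 members.

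The strongest members, ranked by the lowest of their 4 percentile ranks, included sites with an extreme local background. Of the 10 strongest, 6 lay within chr1:564486-570279. The first of them, chr1:567250-568592, had pileups of 195 tags for T47D, 196 for SKBR3, 187 for RKO and 176 for HCT116. All 4 values were near the ceiling set by keeping 1 tag per position and strand, at 88.6% of it for T47D, 83.8% for SKBR3, 89.0% for RKO and 82.2% for HCT116. The fold over local background was 2.85 for T47D, 2.77 for SKBR3, 2.53 for RKO and 3.04 for HCT116. As a multiple of the genome-wide level, the background there was 329 times for T47D, 404 times for SKBR3, 624 times for RKO and 1473 times for HCT116.

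The member at chr13:110076418-110076769 had a far higher fold. Its pileups were 162 tags for T47D, 158 for SKBR3, 167 for RKO and 147 for HCT116, which is 73.6% of the ceiling for T47D, 67.5% for SKBR3, 79.5% for RKO and 68.7% for HCT116. As at the first chr1 member, its pileups were close in all lines although depth differed. Its background multiple was 14.3 for T47D, 17.2 for SKBR3, 27.3 for RKO and 65.5 for HCT116. The medians over all members were 5.50 for T47D, 4.25 for SKBR3, 6.51 for RKO and 6.05 for HCT116. The folds of the chr13 member were 41.3 for T47D, 39.9 for SKBR3, 39.9 for RKO and 41.7 for HCT116. The others among the 10 were chr5:79946328-79947784, chr11:10530692-10531332 and chr21:9826863-9827582, with folds of 7.52 to 14.6. Their background multiples were also high. They ran from 52.4 in T47D to 184 in HCT116 at the chr5 member, and from 48.7 in T47D to 196 in HCT116 at the chr11 member. At the chr21 member they ran from 49.9 in RKO to 93.3 in HCT116. A background above 50 times the genome-wide level in every line was found in 15 members, 6 on chromosome 1 and 9 on chromosome 5. The chr11 member missed this limit only in T47D, and the chr21 member only in RKO.

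Some members were called in all lines but ranked higher in 1 of them. A percentile rank at least 20 points above each other line was found for HCT116 in 910 members (4.71%), for SKBR3 in 820 (4.25%), for RKO in 532 (2.76%) and for T47D in 374 (1.94%). Ranks were coarsest in HCT116, where members had a median of 8 tags and 74 distinct pileups. The distinct pileups numbered 97 in RKO, 115 in SKBR3 and 118 in T47D. In HCT116 a gap of few tags can thus make up 20 points. Both breast lines ranked at least 20 points above both colorectal lines in 536 members (2.78%), and the colorectal lines above the breast lines in 409 (2.12%). The pairings that cross tissues gave 324 for SKBR3 and HCT116, 299 for T47D and RKO, 230 for SKBR3 and RKO, and 201 for T47D and HCT116. The count for each tissue was thus above all 4 mixed counts. With 1 library per line this order has no replicate check.

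Members high in SKBR3 were gathered on chromosome 20 (12.5% of its members, exact Clopper-Pearson 95% interval 9.98% to 15.3%), chromosome 7 (9.84%, 8.04% to 11.9%) and chromosome 8 (8.60%, 6.64% to 10.9%). Chromosome 8 also had the largest share of members that ranked at least 20 points below each other line in SKBR3, with 80 of 709 (11.3%, 9.05% to 13.8%) against 3.84% over all chromosomes. Its median SKBR3 background multiple was 3.64, against 4.25 over all members. On chromosomes 7 and 20 the SKBR3 median was above that of all members, at 6.14 and 6.004. Whether background was raised along whole chromosomes was not tested. Among stretches of 10 Mb with at least 10 members, the share was highest on chromosome 8 from 120 to 130 Mb. There 37 of 71 members were high in SKBR3, and the median background multiple there was 3.15 for T47D, 10.8 for SKBR3, 4.64 for RKO and 4.40 for HCT116. On chromosome 20 from 50 to 60 Mb, 30 of 67 were high in SKBR3, with multiples of 3.90 for T47D, 7.76 for SKBR3, 1.87 for RKO and 3.30 for HCT116. Within the stretch on chromosome 8, the member at chr8:124682606-124682856 had 5 tags for T47D, 19 for SKBR3, 3 for RKO and 3 for HCT116.

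Members high in T47D were most frequent on chromosome 14 (6.29%, 4.51% to 8.50%) and chromosome 3 (5.93%, 4.60% to 7.49%), whose intervals overlapped. On chromosome 3 from 190 to 200 Mb, 24 of 95 were high in T47D, where the background multiple was 12.1 in T47D, 4.99 in SKBR3, 6.33 in HCT116 and 6.87 in RKO. The member at chr3:176532153-176532359 had 31 tags in T47D, against 3 in SKBR3, 2 in HCT116 and 4 in RKO. Members high in RKO were most frequent on chromosome 9 (7.02%, 5.37% to 8.98%). Its interval overlapped those of chromosome 8 (5.22%, 3.70% to 7.12%) and chromosome 10 (4.94%, 3.58% to 6.61%), among others. Members high in HCT116 were most frequent on chromosome 22 (8.32%, 6.13% to 10.97%). There the interval overlapped those of chromosome 18 (7.89%, 5.01% to 11.7%) and chromosome 17 (7.16%, 5.79% to 8.74%), among others.

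Over all members high in a line, the median background multiple of that line was 6.54 against 4.25 over all members for SKBR3, 7.96 against 5.50 for T47D and 9.50 against 6.51 for RKO. For HCT116 it was 5.50 against 6.05. The highest share of members high in RKO in a stretch of 10 Mb was on chromosome 9 from 80 to 90 Mb (5 of 26), where the multiple was 9.90 in RKO, 6.74 in HCT116, 4.49 in T47D and 2.73 in SKBR3. Over all chromosomes together, the background was thus higher at members high in SKBR3, T47D and RKO. Most single chromosomes had the same order, but not all. On chromosome 14 it was 5.98 at members high in T47D against 7.23 over all members. On chromosome 7 it was 5.67 at members high in SKBR3 against 6.14. The part of background in the ranks was not tested. Background is measured from tags of the same library and includes the peaks.

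At 2 members named for RKO and HCT116, background stood highest in the high line. Both were picked for their excess rank in that line, and the background includes the peak itself, so the 2 measures are not independent. A multiple of 0.999 stands at the genome-wide level. Members high in HCT116 as a set had a lower median multiple than all members (5.50 against 6.05). The member at chr12:127256771-127257230 had 32 tags in RKO, against 5 in SKBR3, 7 in T47D and 2 in HCT116, and its background multiple was 8.74 in RKO, against 1.01 in SKBR3, 1.01 in T47D and 1.93 in HCT116. The member at chr6:6811484-6812104 had 17 tags in HCT116, against 3 in SKBR3, 5 in T47D and 4 in RKO. Its background multiple was 18.2 in HCT116, against 0.999 in SKBR3, 0.999 in T47D and 1.78 in RKO.

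**Figure D5:**
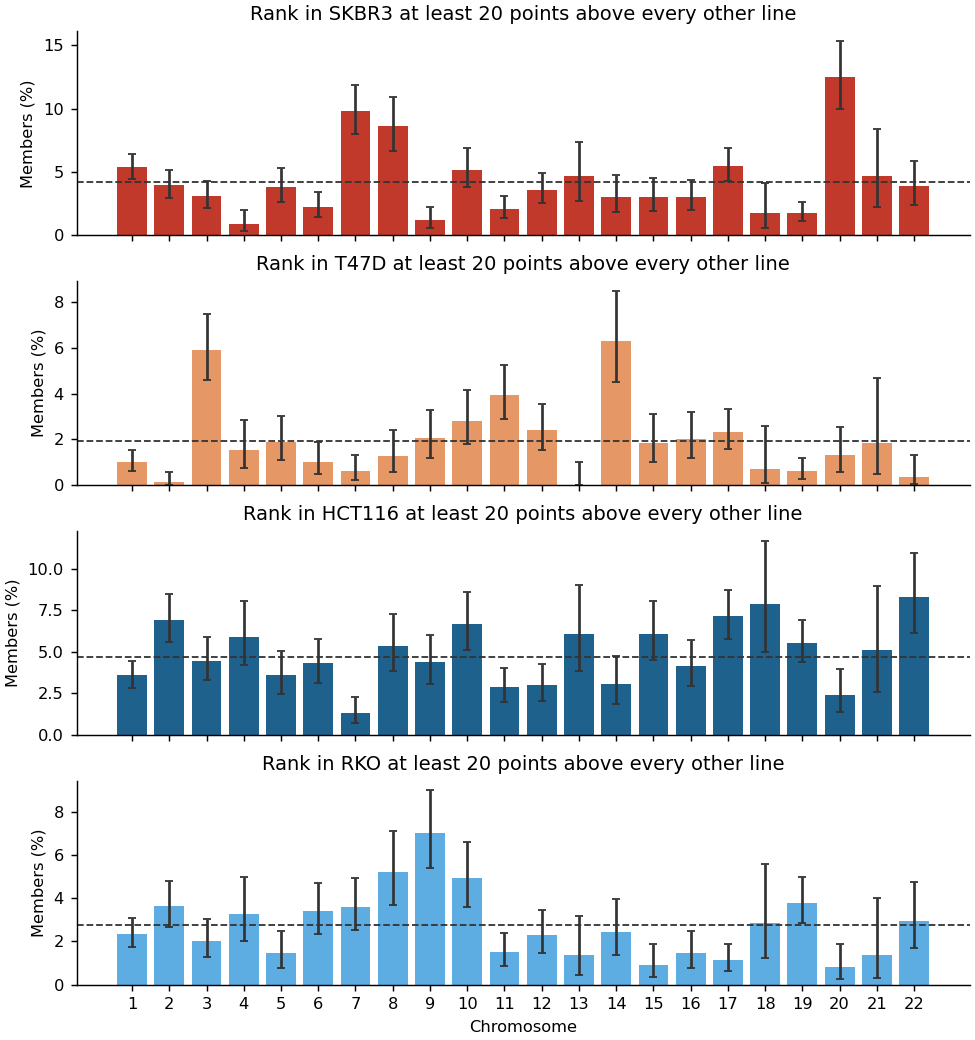
Percentage of the members on each chromosome (x axis) whose percentile rank of pileup in 1 line lay at least 20 points above every other line, with 1 panel per line, exact Clopper-Pearson 95% intervals and a dashed line at the percentage over all chromosomes. SKBR3 stands highest on chromosome 20 at 12.5%, against 4.25% over all chromosomes.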

How the data were processed

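The deposited files are peak lists, 1 for each line. The submitters' processing notes name Bowtie2 2.4.1, MACS3 3.0.0b3 and the hg19 build. Per the file headers, MACS3 ran on single libraries of single-end tags with no control, 1 tag kept per position and a q cutoff of 0.1. Those headers name no shift of tags towards the cut site. T45D is the input name in the T47D header, and the sample record was followed. Each deposited row gives a pileup signal in tags (not scaled between libraries), a fold ratio over local background, and p-values and q-values as −log10, which describe a peak within its own list. Positions are 1-based.

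Peaks were merged, counted and ranked with Python 3.11.15, pandas 2.3.3, NumPy 2.4.6 and SciPy 1.17.1. A region with several peaks in a line took the highest pileup. Line-high counts and top-tenth ranks were taken among members. The strongest members, and the members named as high in 1 line, were picked by ranks within each whole list. Background was (pileup + 1) / fold − 1, divided by tags × fragment length / genome size. Merging was tested on simulated data, where 0 of 8000 regions had a wrong pattern of lines. The simulated regions held at most 1 peak per line, all over a shared core. Regions joined only by chains and regions with several peaks in a line were thus not covered. The members, lists and rules were chosen with earlier results of these data known. Named regions were the 10 strongest, the 5 widest, the 5 with most peaks, 3 per line by excess rank and 5 nearest the cutoff, of which the text gives some. Depth limits HCT116 most, and intervals cover counting error only.

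Housekeeping promoters and marker genes were not analysed here. The planned count needed transcription start sites of the hg19 build, and the reference tables used were of GRCh38.p14. Start sites recalled from memory were tried during the work and then dropped with every value that rested on them, because no source at hand could check them. For the same reason no sequences are printed.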

Additional observations from a re-analysis of the deposited data

Results flagged for a closer look

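Regions called in all 4 lines were also present outside chromosomes 1 to 22, in rows that the comparisons above do not use. Chromosome X held 456 such regions of 4858 merged there (9.39%, exact Clopper-Pearson 95% interval 8.58% to 10.2%). The decoy sequence held 115 of 1851 (6.21%, 5.16% to 7.41%), and the unplaced and unlocalised contigs held 53 of 457 (11.6%, 8.81% to 14.9%). They are listed because they lie in data that no comparison uses. The same rule of a call in every line picked them, so their counts are descriptions.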

How the results depend on the processing

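Requiring a −log10 q of at least 10 left 6575 members, a median width of 625 bp, several peaks in every line in 0.0152%, a median spacing of 119 kb, 9.47 members per Mb on chromosome 19 and a median rho over the 6 pairs of 0.640. Lists cut to the shortest list's 38941 peaks gave 13020 members, 555 bp, 0.0768%, 60.5 kb and 16.2 per Mb. Merging peaks up to 100 bp apart gave a median width of 491 bp and several peaks in every line in 1.08%, and taking only the stretch under all 4 lines gave a width of 173 bp. The median rho, 0.719 as reported, was 0.592 for fold, 0.729 for pileup times length, 0.600 given width and 0.753 without HCT116. Without HCT116, chromosome 19 held 28.7 members per Mb. The alternatives without HCT116 for rho and chromosome 19, and that without members of high background, were chosen after seeing the data. Leaving out 1 line at a time gave 20770 to 25576 regions called in the other 3. Chromosome 19 was highest and chromosome 4 lowest under the −log10 q, equal-length and 100 bp settings. The alternatives on housekeeping promoters were not run, as no hg19 start sites were at hand. No paired analysis was possible because each line has 1 library. The causes of these shifts were not tested.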
